A study of Mus musculus with 8 samples.

Results

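The heat shock chaperone and cochaperone genes examined here are 42 named genes of the cytosolic protein folding machinery and its close partners, and 39 of them were measured on the arrays. They cover the HSP70 and HSP110 proteins, HSP90, the small heat shock proteins, the J-domain proteins (DNAJ), the cochaperones, the heat shock factors and the CCT chaperonin ring. They were chosen by name, and each was read from the probe set that names that gene alone and had the highest mean signal over the 8 arrays. The whole table held 19938 genes with such a probe set. Hspa1b, Hsp90ab1 and Hsf1 had none and are not analysed here. The label "cytosolic" does not cover every member, since Hspa9, Hspd1, Hspe1 and Dnaja3 encode chaperones of the mitochondrial matrix.

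Liver RNA was measured on Affymetrix Mouse Gene 1.0 ST arrays, a 1-colour platform, in C57BL6 mice fasted for 17 h. In the hydrogen water group (4 arrays) the mice had drunk water with dissolved molecular hydrogen for 4 weeks, starting at 7 weeks of age. The control group (4 arrays) shared the strain, the tissue and the fast; what the controls drank is not given in the sources used here. Whether every array is its own animal is not stated in the labels; were it otherwise, p-values would cover only the spread between these samples.

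Chaperones bind proteins that are being made, moved or damaged and help them reach or regain their fold. HSP70 works in cycles of ATP use that J-domain proteins start and nucleotide exchange factors end, and it can pass clients to HSP90 through the adaptor Stip1. Small heat shock proteins hold unfolded proteins without using ATP, and the CCT ring folds actin and tubulin in a closed chamber. Many of these genes are switched on by the transcription factor HSF1. In the liver these genes are known to respond to heat, to oxidants and to the daily rhythm of body temperature and feeding.

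With hydrogen water, no member passed the test over all genes. The members differed by −0.23 to 0.70 on the log2 scale, with a median difference of 0.09, and 27 of 39 were higher and 12 lower in signal. Limma with Benjamini-Hochberg adjustment over 19938 genes gave the members adjusted p-values from 0.618 to 0.998. Over all genes 0 passed (0% called), 48.7% of genes were higher at any p, and the median difference was −0.00 with a median SE of 0.12. At an unadjusted p under 0.05, 4 of the 39 members were called, or 10.3%, all higher: the small heat shock protein gene Hspb1, the HSP90 cochaperone gene Fkbp5, the J-domain gene Dnajb2 and the HSP110-related gene Hspa4l. Of all genes 7.17% were called at that level, 3.6% higher and 3.57% lower. That even split depended on scaling. After quantile normalization 588 genes were called higher and 1179 lower, with 6 members higher and 0 lower. After median centring of the arrays 421 genes were called higher and 1177 lower, with 3 members higher and 0 lower. For 2 members, Dnajb2 and Fkbp5, the 4 hydrogen water values lay wholly above the 4 control values, or 5.13% of the members, against 1.76% of all genes in that direction; 0 members lay wholly below, against 2.01% of all genes, and 3.76% of all genes did not overlap in one direction or the other. The members' median difference moved with single arrays: it was 0.03 without control 4, 0.02 without hydrogen water 4, 0.01 without control 3 and hydrogen water 4 together, and 0.02 with arrays weighted by their fit.

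**Figure D1:**
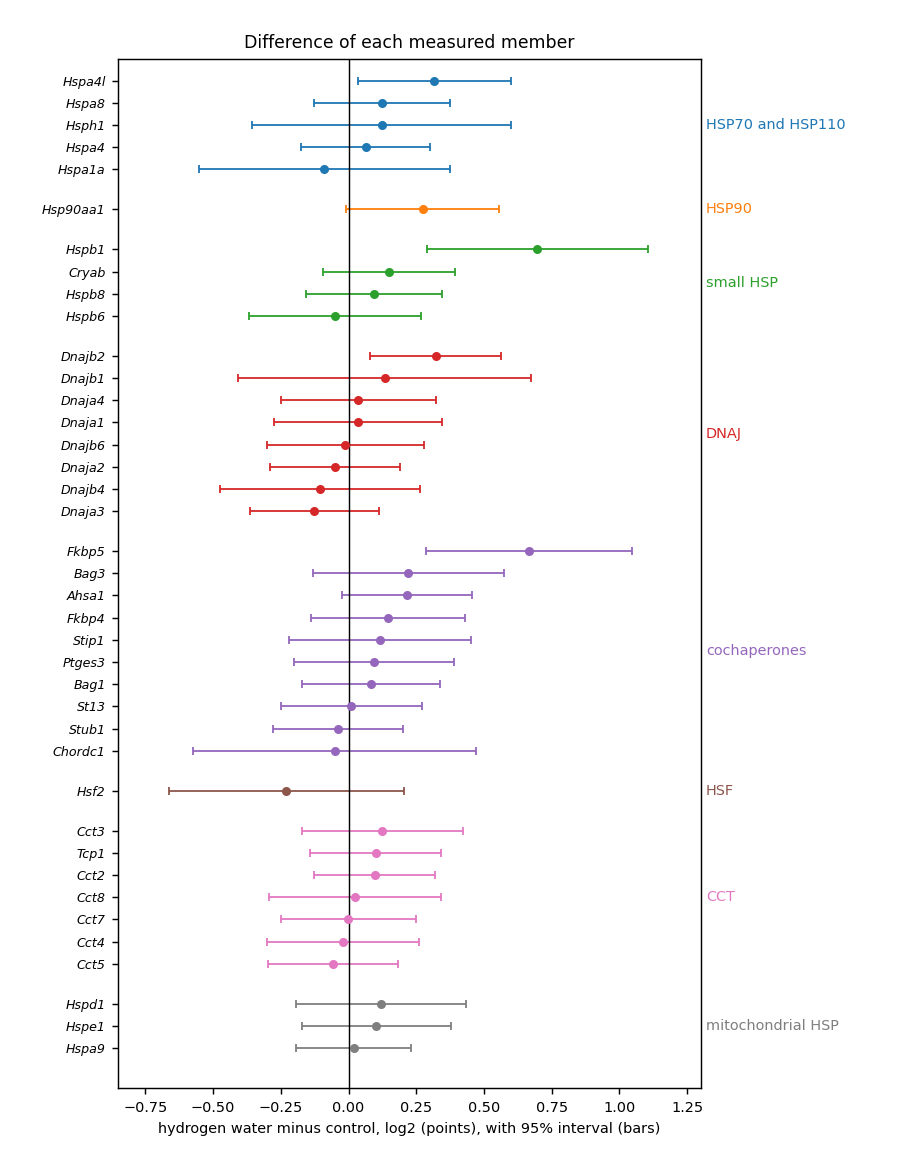
Difference in log2 signal, hydrogen water minus control, for each measured member, grouped by class (points, with the 95% interval of the limma fit as bars, 4 arrays per group). The intervals of Hspb1, Fkbp5, Dnajb2 and Hspa4l lie above 0 before adjustment, and those of the other 35 members cross 0.

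The SE of the difference ran from 0.10 for Hspa9 to 0.25 for Dnajb1. The 95% interval lay within 0.5 on either side of 0 for 28 of the 39 members. For 38 members the mean signal was above the median gene level of the table (5.87). The exception was Dnajb6, a J-domain protein gene that suppresses aggregation, whose single-gene probe set had a mean signal of 4.86. On probe sets annotated jointly to Dnajb6 and a gene model the signal was near 11 (10.91 ± 0.41 with hydrogen water and 11.15 ± 0.18 in controls on one of them, SD, n = 4 each), so the values given here for Dnajb6 describe a dim probe set. RefSeq names pseudogenes after 8 of the listed genes, with 6 named after Hspe1 and 5 after Hspd1. Copies under other names were not counted. A probe set cannot separate a gene from a copy that shares its sequence. Hspa8, Hspd1, Hspe1, Hsp90aa1, Dnaja1, Ptges3 and Hspb1 had several probe sets. The one used may lie on a copy, which was not tested. Within each of these 7 genes the probe sets differed in one direction, though not always in size (0.03 and 0.12 for Hspd1, 0.04 and 0.18 for Dnaja1).

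The HSP70 and HSP110 genes had a median difference of 0.12 over the 5 measured, 4 higher and 1 lower. Hspa8, the constitutive cytosolic HSP70 (probe set 10528021), had log2 signals of 13.56, 13.53, 13.49 and 13.80 on the hydrogen water arrays, against 13.45, 13.51, 13.65 and 13.26 on the control arrays. The groups overlapped, and the difference was 0.12 (SE 0.12, 95% interval −0.13 to 0.38). Hspa1a, the stress-inducible HSP70 (probe set 10450369), gave 6.22, 6.08, 5.97 and 6.02 with hydrogen water, against 6.30, 6.81, 6.03 and 5.53 in controls. All 4 hydrogen water values fell inside the range of the controls. The SD was 0.11 with hydrogen water and 0.53 in controls (n = 4 each), and the difference was −0.09 (SE 0.21). Hsph1, an HSP110 protein that exchanges nucleotide on HSP70 (probe set 10535904), gave 10.41, 10.14, 9.70 and 10.50 with hydrogen water, against 10.17, 10.61, 9.88 and 9.59 in controls. These groups overlapped over most of their range, with a difference of 0.12 (SE 0.22). Hspa4l, a relative of Hsph1 with the same exchange activity (probe set 10491780), gave 8.62, 8.60, 8.13 and 8.54 with hydrogen water, against 8.19, 8.29, 8.20 and 7.95 in controls. Its hydrogen water values were above all controls on 3 arrays, while hydrogen water 3 lay below 3 of the 4 controls. The mean was 8.47 ± 0.23 with hydrogen water and 8.16 ± 0.15 in controls (SD, n = 4 each), a difference of 0.32 (SE 0.13, adjusted p = 0.687, limma), and the unadjusted call was lost without control 4, hydrogen water 1, 2 or 4, with median centring, with array weights and with control 3 and hydrogen water 4 left out together. Hspa4, the third gene of the HSP110 branch, differed by 0.06 (SE 0.11). The class median was 0.00 without control 4, 0.02 without hydrogen water 4, 0.08 with array weights and 0.05 without control 3 and hydrogen water 4 together.

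HSP90, which completes the folding of kinases and steroid receptors, was represented by its inducible form Hsp90aa1 (probe set 10378848). Its signals were 11.88, 11.83, 11.60 and 11.95 with hydrogen water, against 11.60, 11.75, 11.59 and 11.22 in controls. Hydrogen water 1, 2 and 4 were above every control, and control 4 was far below the other 7 arrays. The mean was 11.81 ± 0.15 with hydrogen water and 11.54 ± 0.23 in controls (SD, n = 4 each), a 1.21-fold difference (log2 0.27, SE 0.13, 95% interval −0.01 to 0.56, adjusted p = 0.705). Its other 2 probe sets gave differences between 0.25 and 0.28 when taken with the one used. Without control 4 the difference was 0.17. It was under an unadjusted p of 0.05 with quantile normalization and without control 2 or hydrogen water 3.

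Among the small heat shock proteins the median difference was 0.12, with 3 of 4 genes higher. That median was 0.07 without control 1 and 0.08 without hydrogen water 2. Hspb1, which encodes HSP27, a holdase that also steadies actin filaments (probe set 10408928), had signals of 11.18, 10.79, 10.25 and 10.74 with hydrogen water, against 9.73, 10.11, 10.37 and 9.96 in controls. Hydrogen water 1, 2 and 4 were above all controls, and hydrogen water 3 lay between control 2 and control 3. The mean was 10.74 ± 0.38 with hydrogen water and 10.04 ± 0.27 in controls (SD, n = 4 each), a 1.62-fold difference (log2 0.70, SE 0.19, 95% interval 0.29 to 1.11) with an unadjusted p of 0.00295 and an adjusted p of 0.618 from limma. A second probe set for Hspb1 gave 0.67 and followed the first over the arrays (Pearson r = 1.00). It reads the same RNA samples, so it does not replicate the difference. Cryab, the alpha-B crystallin gene (probe set 10585214), gave 6.61, 6.80, 6.57 and 6.53 with hydrogen water, against 6.26, 6.57, 6.47 and 6.61 in controls. The groups overlapped, with a difference of 0.15 (SE 0.11). Hspb8, which works with Bag3 in the selective autophagy of misfolded proteins, differed by 0.09 (SE 0.12), and Hspb6, a small heat shock protein best known from muscle, by −0.05 (SE 0.15).

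**Figure D2:**
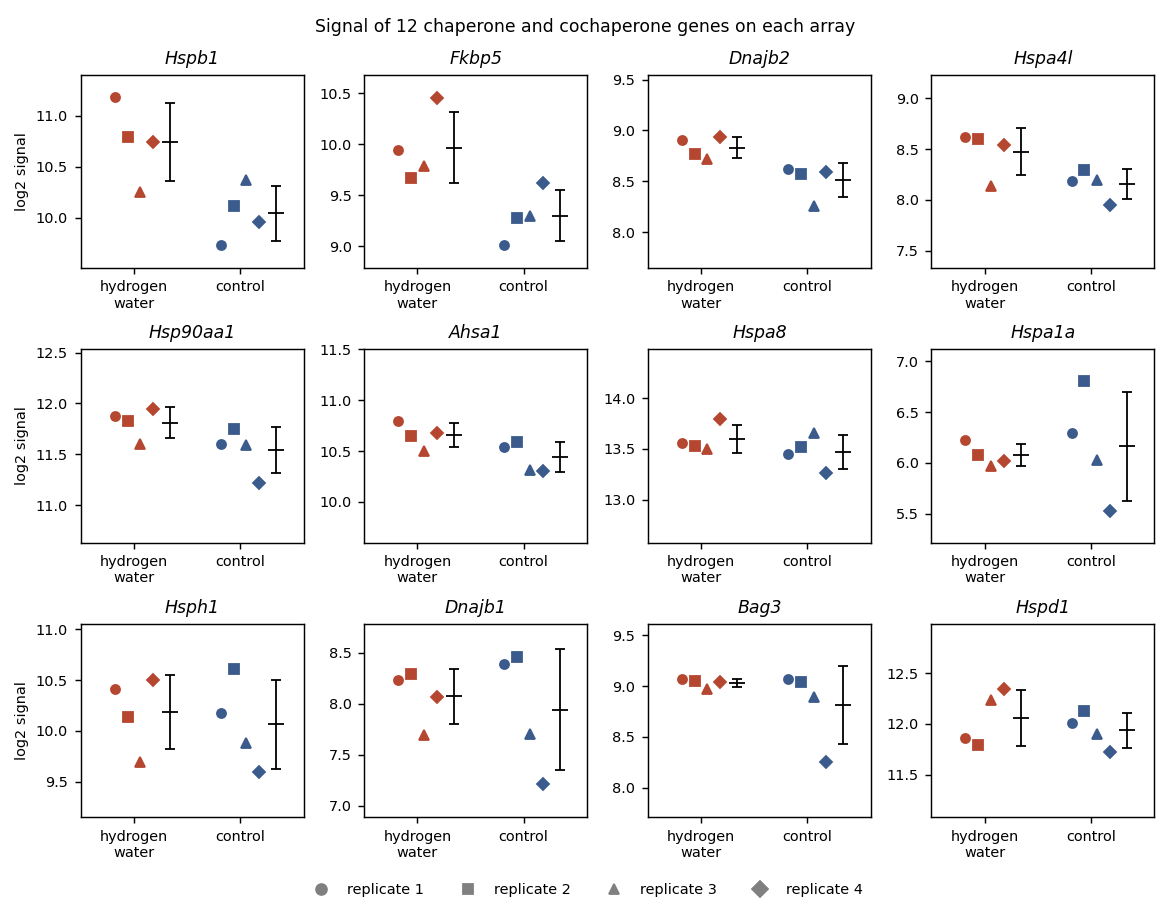
Log2 signal of 12 chaperone and cochaperone genes on each array, hydrogen water (left) and control (right), with the mean and SD of each group beside the points. Marker shape gives the replicate number, which the labels do not describe as a pairing, and each panel spans the same number of log2 units. Control 4 is the lowest of the 8 arrays for Hsp90aa1, Dnajb1, Bag3, Hspa1a, Hspa8, Hspa4l, Hsph1, Hspd1 and, narrowly, Ahsa1. It is not the lowest for Hspb1, Fkbp5 and Dnajb2. The hydrogen water and control points separate fully only for Fkbp5 and Dnajb2.

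The 8 J-domain genes had a median difference of 0.01, with 4 higher and 4 lower. Dnajb2, a J-domain protein that directs HSP70 clients towards degradation (probe set 10347564), gave 8.90, 8.76, 8.72 and 8.94 with hydrogen water, against 8.62, 8.57, 8.26 and 8.59 in controls. Every hydrogen water value was above every control value. Signals averaged 8.83 ± 0.10 with hydrogen water and 8.51 ± 0.17 in controls (SD, n = 4 each), a 1.25-fold difference (log2 0.32, SE 0.11, unadjusted p = 0.0137, adjusted p = 0.654, limma). With control 3 and hydrogen water 4 left out together it was no longer under an unadjusted p of 0.05. Dnajb1, the main HSP40 partner of HSP70 in the heat shock response (probe set 10573198), gave 8.24, 8.30, 7.70 and 8.07 with hydrogen water, against 8.39, 8.46, 7.70 and 7.21 in controls. Its hydrogen water values lay inside the range of the controls, and the means were 8.07 ± 0.27 with hydrogen water and 7.94 ± 0.59 in controls (SD, n = 4 each). The difference was 0.13 (SE 0.25) and turned to −0.11 without control 4. Dnaja3, the mitochondrial J-domain protein (probe set 10433278), gave 10.56, 10.43, 10.53 and 10.72 with hydrogen water, against 10.68, 10.63, 10.89 and 10.56 in controls. The groups overlapped, with a difference of −0.13 (SE 0.11). The other 5 genes, Dnaja1, Dnaja2, Dnaja4, Dnajb4 and Dnajb6, lay between −0.10 and 0.04. The class median had no stable sign: it ran from −0.07 (without control 4) to 0.06 (without control 2) with 1 array left out and was also negative without control 3, hydrogen water 2 or hydrogen water 4. It was −0.01 with quantile normalization, −0.03 with median centring, −0.06 with array weights and −0.07 without control 3 and hydrogen water 4 together.

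Of the 10 cochaperones, 8 were higher and 2 lower, with a median difference of 0.11. That median was 0.05 without control 4, 0.07 without control 3 and 0.16 without hydrogen water 3, and it was 0.07 with median centring, 0.05 with array weights and 0.04 without control 3 and hydrogen water 4 together. Fkbp5, an immunophilin that binds HSP90 in steroid receptor complexes and is a well-known glucocorticoid target (probe set 10449452), gave 9.95, 9.67, 9.79 and 10.46 with hydrogen water, against 9.01, 9.27, 9.30 and 9.62 in controls. The lowest hydrogen water value was just above the highest control value. Signals averaged 9.97 ± 0.35 with hydrogen water and 9.30 ± 0.25 in controls (SD, n = 4 each), a 1.59-fold difference (log2 0.67, SE 0.17, 95% interval 0.28 to 1.05, unadjusted p = 0.00253, adjusted p = 0.618, limma). Fkbp4, the immunophilin that replaces Fkbp5 on active receptors (probe set 10548194), gave 9.60, 9.57, 9.41 and 9.58 with hydrogen water, against 9.68, 9.54, 9.14 and 9.22 in controls. Control 1 was the highest of all 8 arrays, so the groups overlapped, and the difference was 0.15 (SE 0.13). Ahsa1, which speeds the ATPase of HSP90 (probe set 10397518), gave 10.79, 10.65, 10.50 and 10.68 with hydrogen water, against 10.54, 10.59, 10.31 and 10.31 in controls. On 3 arrays the hydrogen water value was above all controls, and the difference was 0.22 (SE 0.11, 95% interval −0.02 to 0.46, adjusted p = 0.727).

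Bag3, a nucleotide exchange factor that links HSP70 to autophagy (probe set 10557992), gave 9.07, 9.05, 8.98 and 9.04 with hydrogen water, against 9.07, 9.04, 8.89 and 8.25 in controls. On 3 control arrays the signal lay within the hydrogen water values or just below them, and control 4 was far below the rest. The difference was 0.22 (SE 0.16), and 0.03 without control 4. Stip1, the adaptor that joins HSP70 to HSP90 (probe set 10465604), gave 10.45, 10.34, 10.08 and 10.59 with hydrogen water, against 10.13, 10.17, 10.66 and 10.03 in controls. Control 3 was the highest array, and the difference was 0.12 (SE 0.15). Bag1, St13, Ptges3, Stub1 and Chordc1 lay between −0.05 and 0.09. These are an exchange factor, an HSP70-interacting protein, the p23 cochaperone, the ubiquitin ligase CHIP and an HSP90 partner.

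Hsf2, a heat shock factor that acts with HSF1 (probe set 10363195), had the lowest difference of all members. Its signals were 8.43, 8.35, 8.55 and 8.94 with hydrogen water, against 9.15, 9.11, 8.69 and 8.23 in controls. The controls spanned both the highest and the lowest of the 8 arrays, and the difference was −0.23 (SE 0.20, 95% interval −0.66 to 0.20, adjusted p = 0.859). It was −0.11 without control 1, −0.12 without control 2 and −0.35 without hydrogen water 4. Without control 4 the difference was −0.42 and under an unadjusted p of 0.05, the only such call on the lower side in any setting tried.

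The 7 measured CCT subunits had a median difference of 0.02, with 4 higher and 3 lower, and none was under an unadjusted p of 0.05 in any setting tried. Cct2 (probe set 10372600) gave 11.24, 11.11, 11.13 and 11.32 with hydrogen water, against 10.98, 11.17, 11.24 and 11.03 in controls. The groups overlapped, with a difference of 0.10 (SE 0.10, 95% interval −0.13 to 0.32). The other 6 subunits, Tcp1, Cct3, Cct4, Cct5, Cct7 and Cct8, lay between −0.06 and 0.12. The class median ran from −0.04 (without control 4) to 0.10 (without control 2) with 1 array left out, was also below 0 without hydrogen water 1 or 4, and was −0.01 with median centring and with array weights, so no direction held for this ring.

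The mitochondrial chaperonin pair Hspd1 (HSP60) and Hspe1 (HSP10), whose products form one folding chamber, differed by 0.12 (SE 0.14) and 0.10 (SE 0.13). Hspd1 (probe set 10375240) gave 11.86, 11.80, 12.23 and 12.34 with hydrogen water, against 12.00, 12.13, 11.90 and 11.72 in controls. Hspe1 (probe set 10455588) gave 12.39, 12.27, 12.36 and 12.04 with hydrogen water, against 12.20, 12.43, 11.97 and 12.05 in controls. Both genes overlapped between the groups, and hydrogen water 4 was the highest array for Hspd1 and the lowest hydrogen water array for Hspe1. Hspa9, the mitochondrial HSP70, differed by 0.02 (SE 0.10).

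The promoter between Hspe1 and Hspd1 is printed because both genes are transcribed from it, in opposite directions, and their co-variation over the arrays was measured. The window runs from 250 bases before to 50 bases after the annotated start of Hspe1 (RefSeq, GRCm38.p6), and capitals mark transcribed bases: the first 35 belong to Hspd1 on the other strand and the last 50 to Hspe1.
Hspe1 (chr1:55087898-55088197, plus strand): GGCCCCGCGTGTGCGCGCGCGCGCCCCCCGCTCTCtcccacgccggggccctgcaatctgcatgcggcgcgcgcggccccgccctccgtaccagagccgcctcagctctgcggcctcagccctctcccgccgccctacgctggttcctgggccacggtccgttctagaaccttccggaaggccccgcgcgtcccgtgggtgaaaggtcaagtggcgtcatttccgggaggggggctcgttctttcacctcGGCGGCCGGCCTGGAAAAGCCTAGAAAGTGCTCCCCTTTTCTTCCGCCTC
Of its 300 bases, 285 are shared with the corresponding window of Hspd1 at the nearer of its 2 annotated starts, 215 bases separate both starts, and 71% of the bases are G or C.

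The members varied unevenly among the arrays. The within-group SD was largest for Dnajb1 (0.46, above that of 98.3% of all genes), Chordc1 (0.44), Hsph1 (0.40), Hspa1a (0.39) and Hsf2 (0.36). It was smallest for Hspa9 (0.09, above that of 6.26% of genes). The SD was smaller with hydrogen water than in controls for 32 of the 39 members, or 82.1%, against 52.7% of all genes. That asymmetry leaned on one array, since without control 4 it held for 23 of 39 members, against 50.9% of all genes. Control 4 was the lowest of the 8 arrays for 17 members, where it was lowest for 8.20% of all genes, and it was the highest array for 0 members. Control 3 was lowest for 12 members (18.4% of all genes), hydrogen water 4 was highest for 11 (16.6%) and control 2 was highest for 10 (10.3%).

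**Figure D3:**
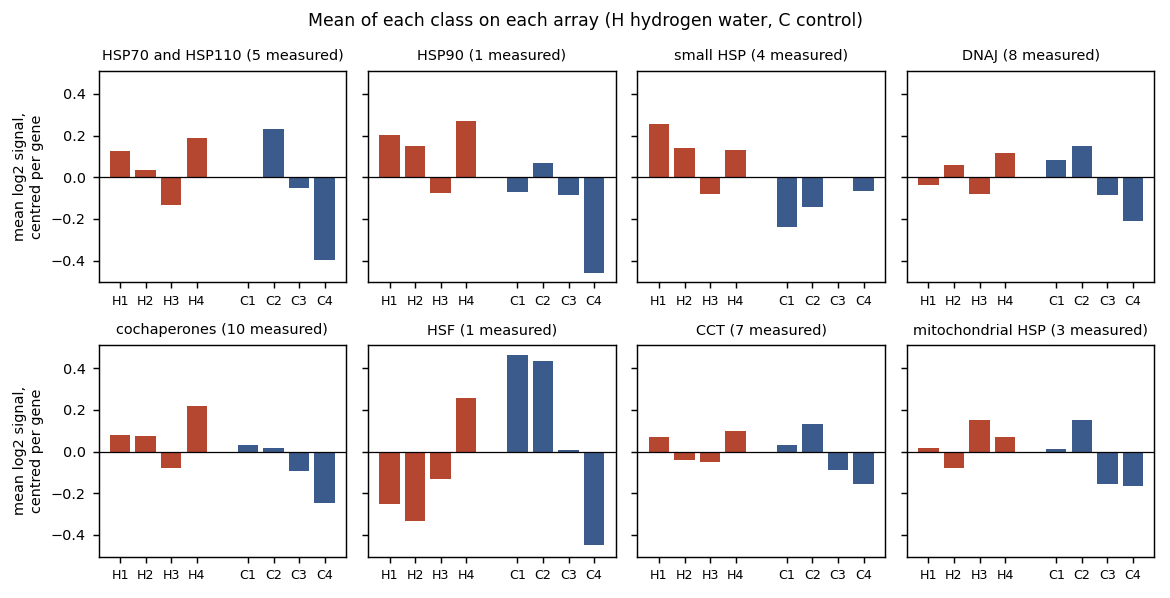
Mean log2 signal of each class on each array after subtracting each gene's mean over the 8 arrays, hydrogen water arrays H1 to H4 at the left of each panel and control arrays C1 to C4 at the right. Control 4 has the lowest bar for HSP70 and HSP110 (−0.40), HSP90 (−0.46), DNAJ (−0.21), cochaperones (−0.25), HSF (−0.45), CCT (−0.15) and mitochondrial HSP (−0.17), and not for the small heat shock proteins (−0.07).

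Over the 8 arrays most pairs of members correlated positively. The median Pearson r over the 741 pairs of members was 0.30, against 0.00 over all pairs of genes, and 74.6% of the member pairs were positive. The pairs of all genes were not matched for signal, whereas 38 members lay above the median gene level. Whether the excess is particular to chaperones was not tested. Taking each group's mean out left a median of 0.29, and without control 4 it was 0.17. By class, the median r was 0.45 for HSP70 and HSP110 (10 pairs) and 0.63 for the mitochondrial HSPs (3 pairs). It was 0.31 for CCT (21 pairs), 0.28 for cochaperones (45), 0.22 for small HSPs (6) and 0.13 for DNAJ (28). The mitochondrial pairs include Hspd1 with Hspe1 (r = 0.13), and so few pairs do not rank the classes. The members that ran most with the rest were Dnajb1 (median r 0.52), Hsph1 (0.49), Hsp90aa1 (0.48) and Fkbp4 (0.47). Hspb6 ran against most of them (median r −0.20), most of all Dnaja2 (r = −0.88), and Dnaja3, Dnaja4 and Cryab had medians of −0.08, −0.08 and −0.04.

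**Figure D4:**
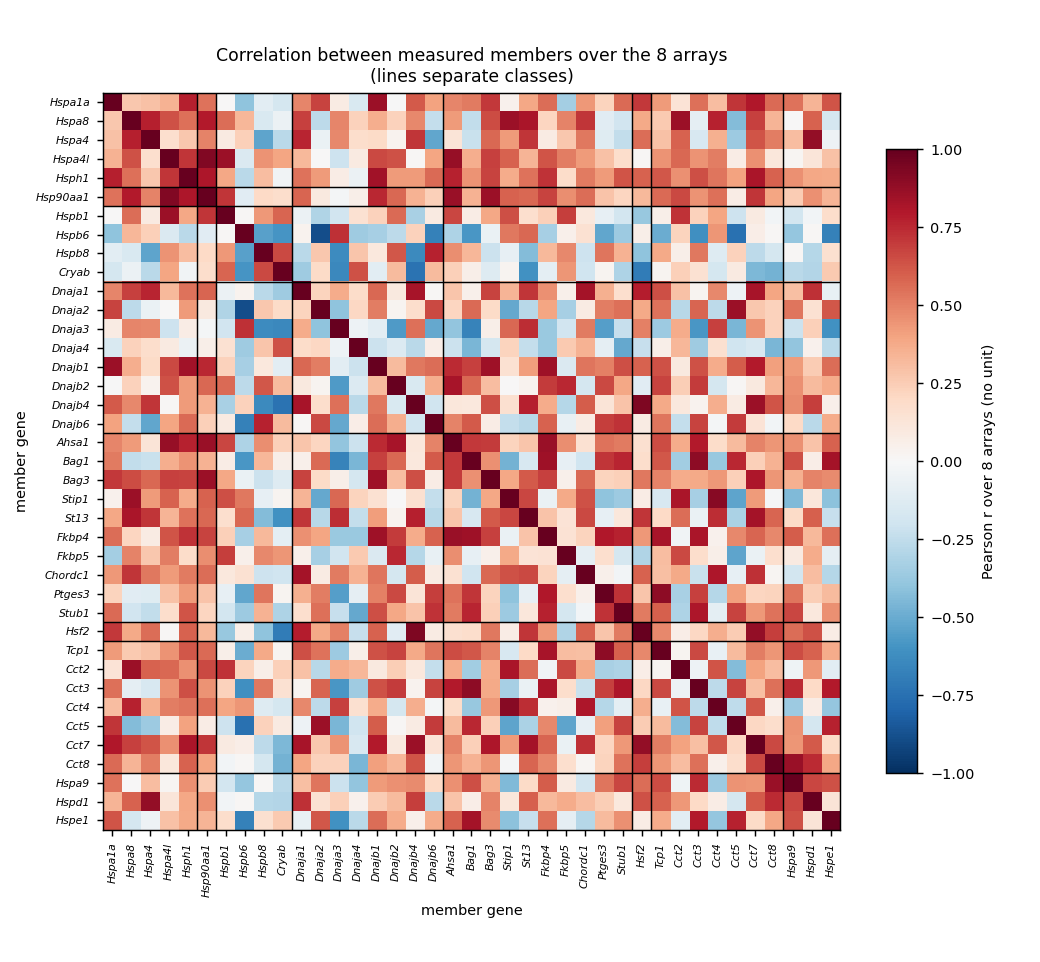
Pearson r between every pair of the 39 measured members over the 8 arrays, red for positive and blue for negative, with lines between classes. Most of the map is red (74.6% of pairs), and the row of Hspb6 is blue for most partners (median r −0.20).

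Among the 741 pairs, 84 had a two-sided exact permutation p under 0.05 for r, 80 positive and 4 negative. The same share over all pairs of genes was not counted, so that count has no background beside it. An r of at least 0.5 was reached by 31.3% of the member pairs, against 12.3% of all pairs of genes. None passed Benjamini-Hochberg adjustment over the 741 pairs for r, where the lowest adjusted p was 0.198. By rank 1 pair did: Hsf2 and the J-domain gene Dnajb4 put the 8 arrays in the same order (Spearman rho 1, adjusted p = 0.0368 by exact permutation, Pearson r = 0.93). Both genes were highest on control 1 and lowest on control 4, and without the 2 arrays farthest from the median of Dnajb4 their r was 0.89. The pairs with the next highest correlations were Hspa4l with Hsp90aa1 (r = 0.92), Stip1 with Cct4 (0.91), Bag1 with Cct3 (0.90) and Ptges3 with Tcp1 (0.90). Their adjusted p for r was 0.198 in each case, by exact permutation.

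A further 7 pairs were chosen from known partnerships, but with earlier results of these data known, and several of them share Hsp90aa1. Their p-values therefore carry little weight. No pair passed adjustment over the 7. Hsp90aa1 and Hsph1 had r = 0.81 and rho = 0.79 (two-sided exact permutation p = 0.0103 and 0.0279, adjusted p = 0.0702 and 0.129), and r was 0.65 without the 2 arrays farthest from the median of Hsp90aa1, hydrogen water 4 and control 4. Hsp90aa1 and Dnajb1 had r = 0.75 and rho = 0.52 (exact permutation p = 0.0301 and 0.197, adjusted p = 0.0702 and 0.34), with 0.55 without those 2 arrays. Hsp90aa1 and Hspa8 had r = 0.80 and rho = 0.62 (exact permutation p = 0.027 and 0.115, adjusted p = 0.0702 and 0.268). That relation rested on hydrogen water 4 and control 4, since r was 0.04 without them, and the same held for Hsp90aa1 with Chordc1 (r 0.56 and rho 0.48, then r −0.18) and for Hspa8 with its J-domain partner Dnaja1 (r 0.69 and rho 0.36, then r −0.39). The exact permutation p of these last pairs was 0.148 and 0.0582 for r and 0.243 and 0.389 for rho, with adjusted p of 0.173 and 0.102 for r and 0.34 and 0.454 for rho. Cct2 and Cct4, subunits of one ring, had r = 0.63 and rho = 0.76 (exact permutation p = 0.0925 and 0.0368, adjusted p = 0.129 and 0.129), and r was 0.76 without hydrogen water 4 and control 1. With quantile normalization, Hsp90aa1 and Hspa8 reached r = 0.91 (adjusted p = 0.026 by exact permutation). With median centring, Hsp90aa1 and Hsph1 reached r = 0.83 (adjusted p = 0.0358 by exact permutation). For these settings neither rho nor r without the 2 farthest arrays is given here, so both values carry little weight.

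Hspd1 and Hspe1, the pair on either side of that promoter, had r = 0.13 and rho = 0.05 over the 8 arrays (two-sided exact permutation p = 0.746 and 0.935, adjusted p = 0.746 and 0.935). Without hydrogen water 3 and 4, the 2 arrays farthest from the median of Hspd1, r was 0.48. That sign depended on the probe set. For the other Hspd1 probe set, r without its own 2 farthest arrays was −0.45 and −0.50 with the 2 probe sets of Hspe1. The 2 probe sets of Hspe1 followed each other (r = 0.99), as did those of Hspd1 (r = 0.83), while the 4 combinations of one with the other gave r between −0.33 and 0.13. A shared movement of the pair was not detectable with 8 arrays.

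**Figure D5:**
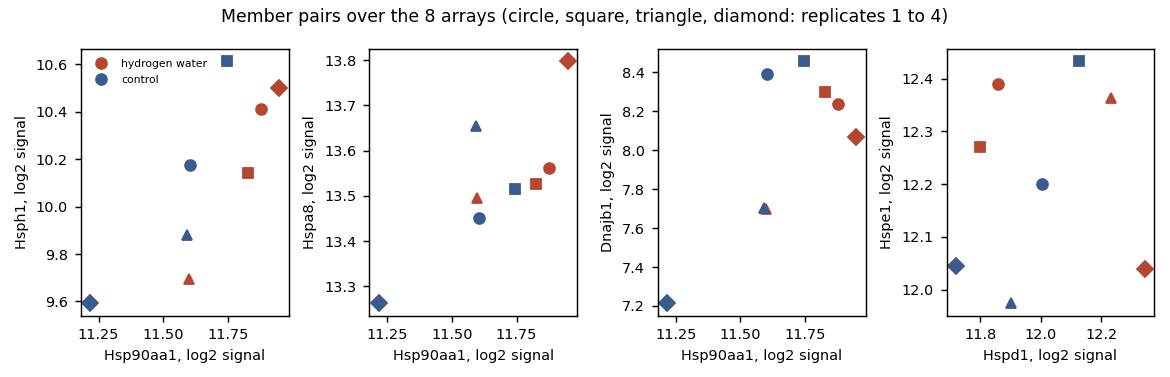
Log2 signals of 4 member pairs on the 8 arrays, hydrogen water in red and control in blue, with marker shape giving the replicate number. Hsp90aa1 runs with Hsph1 (r = 0.81), Hspa8 (r = 0.80) and Dnajb1 (r = 0.75), with control 4 at the lower left of all 3 panels, and Hspd1 and Hspe1 show no such line (r = 0.13).

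Of a wider list of 58 chaperone and folding genes outside the 42, 57 were measured, 25 higher and 32 lower with hydrogen water, with a median difference of −0.02. None was called at an adjusted p under 0.05 and none at an unadjusted p under 0.05 by limma (lowest unadjusted p 0.101). The 4 with the smallest p among the higher genes were Tomm34, an adaptor of HSP70 and HSP90 (0.25, SE 0.14), the distant HSP70 relative Hspa12a (0.19, SE 0.11), the HSP90 partner of myosin folding Unc45a (0.24, SE 0.15) and the membrane J-domain gene Dnajb14 (0.20, SE 0.13). Among the lower genes they were Dnajc8, a J-domain gene of the spliceosome (−0.20, SE 0.12), Dnajc15 of the mitochondrial import machinery (−0.27, SE 0.16), the HSP90 cochaperone Sugt1 (−0.20, SE 0.12) and Hscb, which serves iron-sulphur cluster assembly (−0.17, SE 0.11). The adjusted p of these 8 genes was at least 0.753. By group, 8 of 11 HSP90 cochaperones (median 0.03) and 6 of 10 HSP70 family and nucleotide exchange genes (median 0.01) were higher. So were 4 of 10 other DNAJ genes (median −0.03) and 3 of 8 prefoldin and CCT genes (median −0.05). Lower were 8 of 10 mitochondrial chaperones and proteases (median −0.06) and 6 of 8 other small HSP and HSF genes (median −0.08). Over all genes 48.7% were higher.

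Markers of 2 other liver cell types were also higher with hydrogen water. In whole liver, more cells of a type and more RNA per cell cannot be told apart. All 10 Kupffer cell markers were higher with hydrogen water, with a median difference of 0.37 and a list mean of 6.77 to 7.55 on hydrogen water arrays, against 6.52 to 7.09 on control arrays. All 8 sinusoidal endothelial markers were higher too, with a median of 0.33 and a list mean of 7.98 to 8.56 on hydrogen water arrays, against 7.69 to 8.23 on control arrays. At an unadjusted p under 0.05 there were 4 Kupffer and 3 endothelial markers, and 0 of either at an adjusted p under 0.05 (limma). Hepatocyte markers stood at 14.07 to 14.11 with hydrogen water and 14.05 to 14.10 in controls, with a median difference of −0.04. Of the muscle markers 2 of 8 were higher, with a list mean of 5.39 to 5.47 on hydrogen water arrays, against 5.33 to 6.01 on control arrays, where control 2 gave the upper end. On the remaining lists the higher markers were 3 of 8 for stellate cells, 1 of 5 for cholangiocytes, 3 of 6 for neutrophils, 3 of 6 for T, NK and B cells, 2 of 2 for erythroid cells and 1 of 4 for adipocytes. For Hspb1, the highest array was hydrogen water 1, where the Kupffer and endothelial list means were the lowest of the 4 hydrogen water arrays. For Fkbp5 the highest array was hydrogen water 4, where the Kupffer list mean was highest. The endothelial list mean, centred per gene, was 0.13 on that array. It was higher on hydrogen water 2 (0.42) and 3 (0.27) and lower on hydrogen water 1 (−0.17). The highest array was also hydrogen water 4 for Dnajb2 and hydrogen water 1 for Hspa4l. A single highest array cannot show whether a gene follows these lists, and no correlation with the lists is given here. The part of these cells in the chaperone differences was not tested.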

How the data were processed

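RNA of 8 fasted livers was extracted with an RNeasy Mini kit and labelled with the Ambion WT Expression kit, per the labels' protocols. Sample titles gave the groups, because all 8 samples, controls included, carry one treatment text. The authors deposited log2 signals with 1 value for each probe set on an array. The submitters' processing notes name Affymetrix Expression Console. Its version, its background, normalization and summary steps and the genome build were not given in the sources used here. The log2 scale was inferred from the range of the values.

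The table held 35556 probe sets, of which 21789 carried 1 gene symbol, 1621 carried several and 12146 are unnamed here. Platform symbols were updated with a RefSeq table (GRCm38.p6), in which 19856 of 19938 genes matched. No depth applies to arrays, so precision rests on 4 arrays per group. Array medians lay between 5.27 and 5.37, and correlations between arrays between 0.988 and 0.995. No column was left unassigned.

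The 2 groups were compared by lmFit and eBayes (limma 3.58.1, R 4.3.3), two-sided and without covariates. P-values were adjusted by Benjamini-Hochberg over 19938 genes and called under 0.05. The fit had 6 residual and 5.88 prior degrees of freedom. Correlations over arrays used exact permutation over all 40320 pairings in Python 3.11.15 and were adjusted over each family. The fit was tested on simulated data with known answers.

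The members, the wider list of 58 genes, the marker lists and the pairs were chosen with earlier results of these data known, so no list was tested as a set. Values on every array are given for the 12 members with the smallest unadjusted p and for a fixed set of class representatives, and for the wider list the 4 genes with the smallest p in each direction are named. The alternatives tried were leaving out dim probe sets, averaging a gene's probe sets, quantile normalization, median centring, array weights, trend and robust settings in eBayes, a block for replicate numbers, and leaving out single arrays. Leaving out control 3 and hydrogen water 4 together was chosen after seeing the data.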

Additional observations from a re-analysis of the deposited data

Results flagged for a closer look

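In 5 of the 78 groups of 4 arrays, 1 array stood apart from the other 3 by more than Dixon's 95% critical value (the gap to the nearest array over the whole range of the group). Chance flags about 1 group in 20, so a count of this size carries no weight by itself.

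For Hspa4l, an HSP110-related gene, hydrogen water 3 was low, with a gap ratio of 0.840. Hydrogen water 3 was also low for the HSP90 immunophilin Fkbp4 (0.834). For Cct3, a subunit of the CCT ring, hydrogen water 1 was high among the hydrogen water arrays, at 10.85 (ratio 0.869). For Dnajb2, a J-domain gene whose groups do not overlap, control 3 was low among the controls, at 8.26 (ratio 0.882). For Dnaja4, another J-domain gene, control 1 was low among the controls, at 6.39 (ratio 0.896).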

How the results depend on the processing

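The count of members with an adjusted p under 0.05 was 0 in every setting run, the number of members higher with hydrogen water stayed between 22 and 33 of 39, and their median difference stayed above 0 (0.01 to 0.12). Hspb1 and Fkbp5 were under an unadjusted p of 0.05 in every setting. Members called higher at that level numbered 3 to 6 with 1 array left out and 2 without control 3 and hydrogen water 4 together, and members called lower 0 to 1. In the whole table the adjusted count was 0 to 1 with 1 array left out (1 without control 2 or control 3) and 3 without control 3 and hydrogen water 4 together. The wider list, with 0 calls at an unadjusted p under 0.05, gave 0 to 6 with 1 array left out (6 without hydrogen water 2), 3 with array weights and 2 without control 3 and hydrogen water 4 together. The median pairwise r of members was 0.17 to 0.35 with 1 array left out. The same-numbered arrays of the 2 groups deviated from their group means with correlations of −0.06, 0.06, −0.03 and −0.16. These gave no sign of pairing, though so few arrays cannot exclude it. The replicate block left 0 adjusted calls, 4 members and 1313 genes at an unadjusted p under 0.05, against 1429 genes without it. With the block the lowest adjusted p (limma) was 0.305 over all genes, against 0.558 without it. Among members it was 0.437, against 0.618 without the block.

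Members near 0 changed sign: 20 of 39 did so in at least 1 setting, all with a difference of 0.13 or less in size. With quantile normalization Dnaja4 was −0.0034 and Cct7 0.0112. With median centring Hspa9 was −0.0196, Dnaja1 −0.0032, Dnaja4 −0.0020, St13 −0.0284 and Cct8 −0.0145. With array weights Hsph1 was −0.0524, Hspa9 −0.0038, Hspb6 0.0442, Dnaja1 −0.0075, Dnajb1 −0.0262, Ptges3 −0.0110 and Cct8 −0.0099. Without control 3 and hydrogen water 4 together Hsph1 was −0.0432, Hspa9 −0.0320, Hspb6 0.0022, Dnaja1 −0.0464, St13 −0.0147, Ptges3 −0.0669, Tcp1 −0.0084, Cct4 0.0026 and Cct8 −0.0863. With 1 array left out the ranges were −0.0569 to 0.1229 for Dnaja4, −0.2745 to 0.0024 for Dnajb4, −0.1066 to 0.0764 for Dnajb6, −0.1148 to 0.0114 for Stub1, −0.0914 to 0.0450 for Cct7, −0.3029 to 0.1241 for Hspa1a, −0.1079 to 0.0324 for Dnaja2, −0.1150 to 0.0063 for Cct5, −0.0230 to 0.0564 for Hspa9, −0.1747 to 0.0513 for Hspb6, −0.0016 to 0.1415 for Bag1, −0.2710 to 0.0842 for Chordc1, −0.0317 to 0.1727 for Ptges3, −0.0961 to 0.0646 for Cct4, −0.0433 to 0.1498 for Cct8, −0.0352 to 0.3045 for Hsph1, −0.0760 to 0.1201 for Dnaja1, −0.1091 to 0.3052 for Dnajb1 and −0.0704 to 0.0620 for St13. Without the 2 farthest arrays, r was −0.18 for Hsp90aa1 with Chordc1 and −0.39 for Hspa8 with Dnaja1. The cause of these changes was not tested. The number of arrays limits every value given here; leaving out dim probe sets removed Dnajb6 alone of the members.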

Other observations

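One probe set is annotated to both stress-inducible HSP70 genes, Hspa1a and Hspa1b, and is named for neither. Its log2 signals were 9.28, 8.71, 8.80 and 8.89 with hydrogen water, against 9.18, 10.34, 8.69 and 7.65 in controls. The hydrogen water values lay inside the range of the controls, with SDs of 0.25 with hydrogen water and 1.12 in controls (n = 4 each) and a difference of −0.04. Over the 8 arrays it followed the Hspa1a probe set (r = 0.99, rho = 0.79), Dnajb1 (r = 0.83, rho = 0.76), Hsph1 (r = 0.80, rho = 0.86) and Bag3 (r = 0.74, rho = 0.74). Two-sided exact permutation gave p = 0.00104, 0.0065, 0.00613 and 0.0933 for r and 0.0279, 0.0368, 0.0107 and 0.0458 for rho, in that order. Adjusted over the 17 pairs of probe sets tested together, these were 0.00253, 0.0123, 0.0123 and 0.122 for r and 0.0528, 0.0625, 0.0228 and 0.0708 for rho. That family also held pairs of probe sets of one same gene, which were likely to follow each other from the start. Their small p-values lower the adjusted p of the other pairs, so these adjusted values carry little weight. Without the 2 arrays farthest from its median, r was 0.84, 0.61, 0.55 and 0.66. These pairs were chosen after the values were seen.

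A further 2 probe sets are annotated jointly to Hspa8 and the small nucleolar RNAs Snord14d and Snord14c, which lie in introns of Hspa8. Their signals were 8.95, 8.44, 8.58 and 9.10 with hydrogen water, against 6.72, 7.44, 6.24 and 7.73 in controls on the first of them, and the difference was 1.73. The joint probe sets were not taken as Hspa8 because they name several genes. The 3 probe sets that name Hspa8 alone differed by 0.10 to 0.23. Among those 3, the 2 with the closest pattern had r = 0.99 over the arrays, and the remaining one had r = 0.73 and 0.67 with them.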
